A study of Drosophila melanogaster with 3 samples.

Results

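The genes described here make the insect moulting hormone, break it down or supply its synthesis. They are nvd, spo, spok, sro, dib, sad, shd, Cyp18a1, ecd and Npc1a. The 10 genes were chosen by name from 13945 protein-coding genes on 6 chromosome arms, and binding of the protein CG32006 around each was read from deposited peak lists. CG32006 is listed in the RefSeq gene table under the synonym FoxJ1, a name of the forkhead family of transcription factors. The assay was ChIP-seq, the sequencing of immunoprecipitated chromatin, on whole Drosophila melanogaster at the prepupa stage, sexes pooled, from 1 transgenic line (strain CG32006-GFP) that carried CG32006 fused to GFP at its C-terminus, with an antibody against GFP. There were 3 biological replicates of this 1 group and no second condition. The promoter that drives the fusion gene and the read depth were not found in the labels or files. The labelled age of 48 days is not that of a prepupa, and the stage name is used. In whole animals, a site occupied in few cells and a site occupied weakly in many cells cannot be told apart.

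Insects make ecdysone from dietary sterols in the prothoracic gland, and peripheral tissues turn it into the active hormone 20-hydroxyecdysone. Npc1a moves cholesterol out of endosomes. Neverland (nvd) makes the first intermediate, the P450 enzymes spook (spo) and spookier (spok) and the dehydrogenase shroud (sro) act in the steps that follow, and disembodied (dib) and shadow (sad) are P450 hydroxylases that complete ecdysone. Shade (shd) is the P450 that produces 20-hydroxyecdysone outside the gland, Cyp18a1 inactivates it, and ecdysoneless (ecd) is a protein needed for hormone production that takes part in pre-mRNA splicing. Pulses of the hormone time the moults and the steps from larva through prepupa to pupa.

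Binding was concentrated at 1 of these genes. Of the 11665 peaks of the optimal list, which the authors thresholded by irreproducible discovery rate (IDR), 9 had their summit in the body of a listed gene or within 5 kb of it. Shd had 7 of them, ecd had 1 and sad had 1, so that 3 of 10 genes had a peak. By the same rule 54.1% of all protein-coding genes had one (7551 of 13945). Among the genes without a peak, nvd and spok lay in stretches where the lists held few rows of any kind. Around Npc1a the list called on all replicates pooled had no row. The part of these stretches in the difference was not tested. The gap depended on the distance allowed, and within 10000 bp 7 of 10 genes and 71.4% of all genes had a peak. A promoter-proximal summit, no farther than 500 bp from a transcription start site (TSS) of the gene itself, was found at 1 of 10 genes, shd, against 19.1% of all protein-coding genes. At least 7 summits, as at shd, were found at 3.66% of all protein-coding genes (510 genes), and the median gene with a peak had 2.

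The 9 peaks are numbered along each gene. Their summit windows are shown because the base composition and motif results further on rest on them. Which bases in them were bound is not given by the lists. Each window holds 101 bases of the Release 6 genome (RefSeq sequence, dm6), centred on the summit and written 5′ to 3′ on the plus strand, with matches to the motifs discussed further on in capitals.
ecd-1 (chr3L:2262744-2262844): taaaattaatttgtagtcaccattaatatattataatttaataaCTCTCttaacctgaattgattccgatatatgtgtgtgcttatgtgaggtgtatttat
sad-1 (chr3R:11882607-11882707): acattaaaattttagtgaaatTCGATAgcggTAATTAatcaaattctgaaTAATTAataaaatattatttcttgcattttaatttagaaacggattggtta
shd-1 (chr3L:14610624-14610724): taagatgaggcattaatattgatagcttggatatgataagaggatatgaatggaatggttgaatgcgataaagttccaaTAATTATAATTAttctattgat
shd-2 (chr3L:14611695-14611795): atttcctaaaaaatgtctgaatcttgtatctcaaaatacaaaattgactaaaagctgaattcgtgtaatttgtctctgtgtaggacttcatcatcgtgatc
shd-3 (chr3L:14613044-14613144): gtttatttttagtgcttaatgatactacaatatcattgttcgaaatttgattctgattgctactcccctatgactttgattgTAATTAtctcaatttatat
shd-4 (chr3L:14613848-14613948): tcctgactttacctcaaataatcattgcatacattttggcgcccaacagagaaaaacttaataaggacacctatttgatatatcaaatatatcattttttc
shd-5 (chr3L:14614069-14614169): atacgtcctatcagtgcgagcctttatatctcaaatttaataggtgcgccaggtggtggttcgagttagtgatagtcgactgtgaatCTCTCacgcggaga
shd-6 (chr3L:14616778-14616878): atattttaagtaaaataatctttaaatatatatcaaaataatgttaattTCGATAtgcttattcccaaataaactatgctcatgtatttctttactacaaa
shd-7 (chr3L:14622556-14622656): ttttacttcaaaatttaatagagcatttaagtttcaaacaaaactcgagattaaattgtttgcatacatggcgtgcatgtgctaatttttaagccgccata

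**Figure D1:**
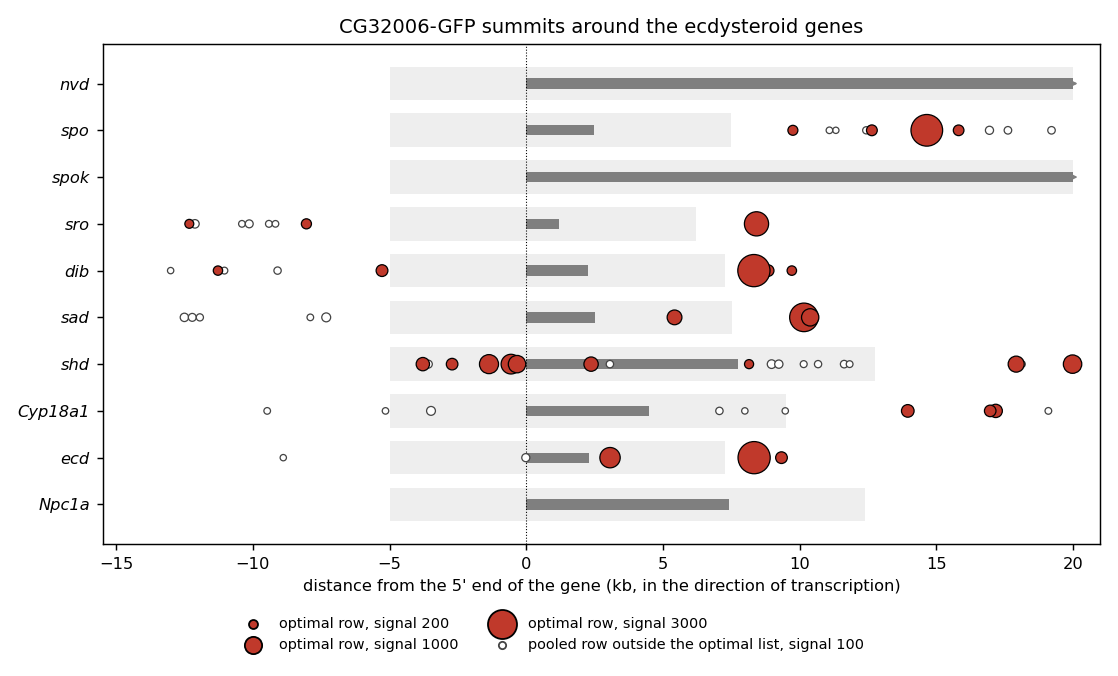
Summits around the 10 genes, by distance from the 5' end of each gene in kb along the direction of transcription. Grey bars are gene bodies (cut off at 20 kb for nvd and spok), pale zones reach 5 kb either side, filled circles are optimal rows and hollow circles are pooled rows outside the optimal list, with area growing with signal. Filled circles fall in the pale zone at sad, shd and ecd, 7 of them at shd.

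Shd (FBgn0003388) lies at chr3L:14614458-14622205 on the plus strand, with 3 annotated transcripts that start at 2 sites. From the distal side, its summits lay 3784 bp (shd-1), 2713 bp (shd-2), 1364 bp (shd-3), 560 bp (shd-4) and 339 bp (shd-5) upstream of the first start site. A further summit, shd-6, lay 2370 bp downstream of that site, in an intron. The last, shd-7, lay 401 bp past the 3' end of the gene and 190 bp from the TSS of its neighbour CG9628. Shd-1 to shd-6 thus had the TSS of shd as their nearest start site, and of these shd-5 was promoter-proximal.

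The deposited signal is the height that the authors' peak caller gave, on a scale not stated, and it ranks peaks within a list. Among the shd peaks it was highest at shd-4 (1336, rank 1507 of 11665) and shd-3 (1240, rank 1679), followed by shd-5 (1020, rank 2251). These upstream peaks reached 3.01, 2.80 and 2.30 times the list median of 443. The intronic shd-6 had a signal of 661 and shd-1 of 557, both above the median. Shd-2 (397) and shd-7 (208, rank 11166) lay under it, and shd-7 exceeded only 4.28% of the optimal rows. The weakest row of the optimal list had a signal of 197.

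Each replicate also had its own list of 30000 rows, and a replicate's signal was divided by the median of its 11665 strongest rows (136, 155 and 170 in replicates 1, 2 and 3) to give a relative signal. At shd-4 the deposited signal was 364, 446 and 517 in replicates 1, 2 and 3, a relative signal of 2.87 ± 0.18 (SD, n = 3). At shd-3 it was 383, 468 and 405, a relative signal of 2.75 ± 0.33. The ranges of relative signal overlapped between this pair, 2.68 to 3.05 at shd-4 and 2.39 to 3.03 at shd-3, so their order was not resolved.

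At shd-5 the signal was 262, 190 and 384, a relative signal of 1.81 ± 0.53, the widest spread among the 9 peaks. Replicate 2 was the low one, at a relative signal of 1.23, and replicate 3 the high one, at 2.27. In the optimal list and in every replicate list the row of shd-5 overlapped that of shd-4. In replicate 1 they shared only position 14613962, and in replicate 2 the row of shd-5 lay wholly inside that of shd-4. The intronic shd-6 had signals of 208, 194 and 263, a relative signal of 1.45 ± 0.17. The relative signals of shd-5 and shd-6 overlapped, while every relative signal of shd-3 and shd-4 was above every one of shd-5.

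At the distal shd-1 the signal was 200, 167 and 182, a relative signal of 1.21 ± 0.23 with replicate 1 highest. At shd-2 it was 127, 101 and 137, a relative signal of 0.80 ± 0.14. Shd-7 had 48.9, 69.3 and 100, a relative signal of 0.47 ± 0.12 with replicate 3 highest. The ranges of these peaks did not overlap: shd-1 did not fall under 1.07, shd-2 ran from 0.66 to 0.94, and shd-7 did not exceed 0.59. In each replicate the highest relative signal of the locus was that of shd-3 or shd-4, upstream of the first start site.

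**Figure D2:**
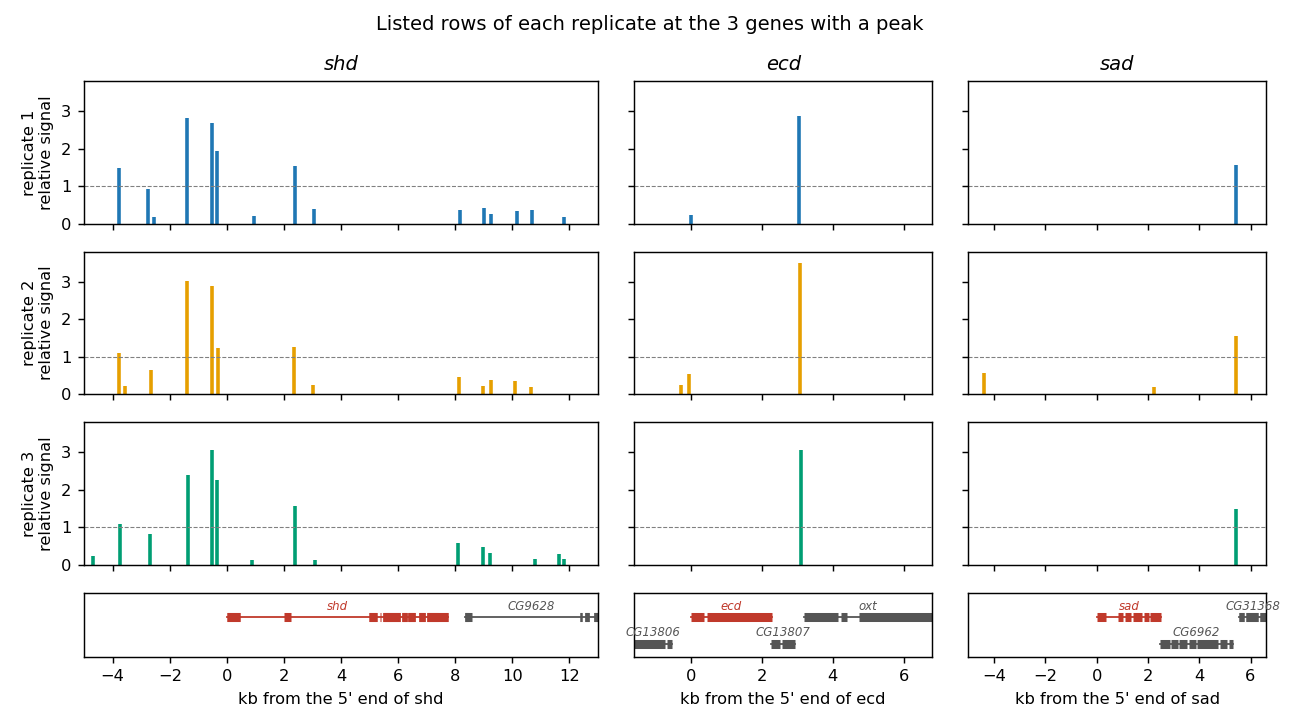
Relative signal of all listed rows of each replicate (vertical axis, 1 is the median of that replicate's strongest rows, dashed) against distance in kb from the 5' end of shd, ecd and sad, with protein-coding genes below (thick: exons, upper line: genes on the strand of the named gene). The rows of shd-1 to shd-7 and the single rows beyond the 3' ends of ecd and sad appear in all 3 replicates, while some weaker rows are in 1 replicate alone.

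Ecd (FBgn0000543) lies at chr3L:2263581-2265857 on the minus strand and had the strongest of the 9 peaks, ecd-1, with a signal of 1428 (rank 1348, 3.22 times the list median). In replicates 1, 2 and 3 the signal was 390, 540 and 517, a relative signal of 3.14 ± 0.32 (SD, n = 3). The range, 2.88 to 3.49, overlapped those of shd-3 and shd-4. The summit lay 787 bp past the 3' end of ecd, between the oppositely oriented start sites of CG13807 (125 bp) and oxt (130 bp), which encodes a peptide O-xylosyltransferase. At the start site of ecd itself, a pooled row lay 18 bp upstream with a signal of 143 and a −log10 q of 1.66, and it was not in the optimal list. Replicate 1 had a row of signal 30.1 there and replicate 2 had 1 of 82.4 at 54 bp, while replicate 3 had none.

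Sad (FBgn0003312) lies at chr3R:11877235-11879754 on the plus strand. Its peak sad-1 had a signal of 706 (rank 3592) and lay 2903 bp past the 3' end, 123 bp from the TSS of CG6962 and 133 bp from that of CG31368, again between start sites of opposite orientation. The signal was 212, 240 and 252 in replicates 1, 2 and 3, a relative signal of 1.53 ± 0.05, the narrowest spread of the 9 peaks. Its summit moved by at most 6 bp between replicates. The nearest optimal row upstream of sad lay at 21914 bp. Within 5 kb upstream a row was listed in replicate 2 alone, at 4401 bp and with a signal of 88.6. So at ecd and at sad the peak was nearer to start sites of neighbours than to that of the gene itself, and with shd-7 this held for 3 of the 9 peaks.

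**Figure D3:**
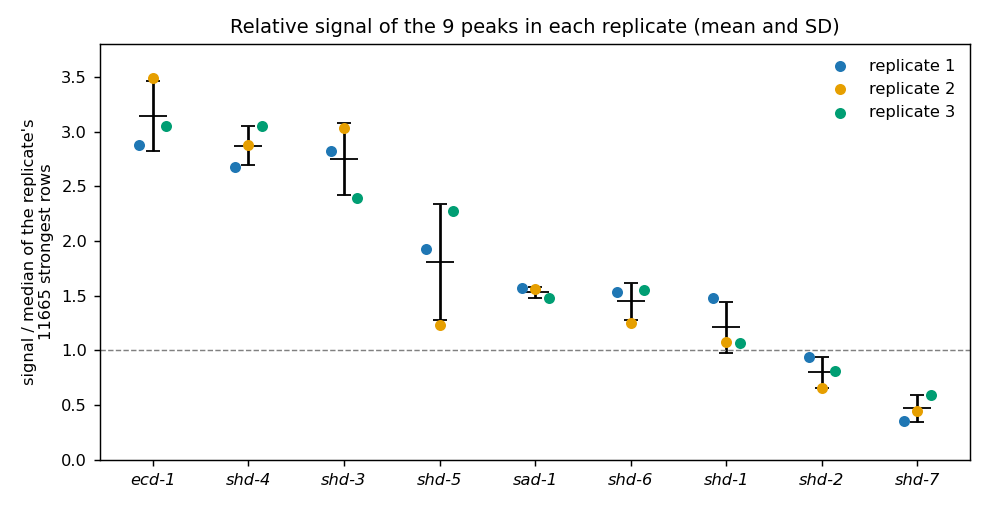
Relative signal of the 9 peaks in each replicate (points), with mean and SD (bars, n = 3); the dashed line at 1 is the median of the replicate's strongest rows. Ecd-1, shd-4 and shd-3 stand above the rest, with values from 2.39 to 3.49, and shd-7 lies lowest, at 0.36 to 0.59.

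A replicate was said to support a peak when the peak's summit fell inside 1 of that replicate's 11665 strongest rows. All 3 replicates supported 7 of the 9 peaks, compared with 73.6% of the optimal list. The lists share their reads with the optimal list and were called against a single control, so this recurrence describes the lists and is no independent check. Shd-6 was supported by 2 replicates. In replicate 1 its row began 4 bp past the optimal summit, with a summit 16 bp away and a rank of 3629. Shd-7 was supported by replicate 3 alone and had the one −log10 q, 2.99, below the list maximum of 4.26 among the 9 peaks. Between replicates the summit positions had an SD of 3.21 bp (sad-1) to 47.1 bp (shd-2), and the median over the 9957 optimal peaks listed in all replicates was 20.0 bp.

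Among the early synthesis genes, none had a peak. Nvd (FBgn0287185, chr3L:24324866-24401655) was farthest from an optimal summit, at 1414720 bp, and 0.0287% of protein-coding genes lay farther. Of the 19 protein-coding genes within 1 Mb (here and below, such counts include the gene itself), 0 had a peak. The optimal list held 0 rows per Mb there against 96.7 over the arm. The pooled list of 30000 rows, which includes background regions, had 1.44 rows per Mb there against 241. Rows inside nvd came from replicate 2 alone, with signals of 38.0 and 27.0 and a −log10 q of 0.35 and 0.13.

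Spok (FBgn0086917, chr3R:3322810-3354486) was 824827 bp from the nearest optimal summit, and 0.151% of genes lay farther. The optimal list had 3.45 rows per Mb within 1 Mb of it against 83.3 over the arm. Of the 42 protein-coding genes within 1 Mb, spok included, 10 (23.8%) had a peak. Before the pooled row at position 3733955 of arm 3R, the pooled list had no row at all. The replicate lists, which also include background regions, held 0.963 to 19.3 rows per Mb around nvd and 8.86 to 15.3 around spok, against 210 to 242 over their arms. Nvd and spok therefore lay in stretches where every list held few rows of any kind. Bases written in lower case in the Release 6 sequence, which marks masked sequence such as repeats, made up 39.8% of the genome within 1 Mb of nvd and 36.2% around spok, against 21.2% and 19.5% of their arms and 13.7% to 18.6% around the other 8 genes. Whether reads could be placed uniquely there was not tested, so the distances of nvd and spok describe the lists and do not show that binding was absent.

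The other early genes lay among many peaks. Sro (FBgn0262112, chr3R:29794597-29795805) was 7212 bp from a strong summit (signal 2059, rank 677), which lay 72 bp from the TSS of Etfb, a gene for an electron transfer flavoprotein subunit. On its other side a weaker summit lay at 8042 bp (signal 279), in an intron of kay, which encodes the Fos transcription factor. No row of any list fell within 5 kb of sro, while 64.3% of the 272 genes within 1 Mb had a peak.

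Spo (FBgn0003486, chr3L:5590083-5592571) was 7263 bp from an optimal summit with a signal of 271, and it also had no row of any list within 5 kb. The replicates differed at its neighbour l(3)psg2. Replicate 1 had a row of signal 237 (rank 3071) 117 bp from the TSS of l(3)psg2, and replicate 2 had 1 of signal 453 (rank 1573) at 111 bp. Replicate 3 and the pooled list had no row at that site, which lay 6531 bp from spo in replicate 1.

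Dib (FBgn0000449, chr3L:4062292-4064551), the P450 that acts before sad, missed the 5 kb limit narrowly. Its nearest summit lay 5277 bp upstream, in an intron of CG1136, with a signal of 414. On the other side, 6066 bp past its 3' end, lay a summit with a signal of 3723 (rank 168) in an intron of wit, a receptor of the BMP pathway. Replicate 2 alone had rows within 5 kb of dib, with signals of 43.1 and 63.7. Within 1 Mb of dib, 69.0% of 258 genes had a peak, the highest share around any of the 10 genes.

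Cyp18a1 (FBgn0010383, chrX:18688538-18693042), which breaks the hormone down, was 9449 bp from the nearest optimal summit (signal 490). A pooled row 3485 bp upstream of it had a signal of 192 (rank 11901) and a −log10 q of 2.72, just under the weakest optimal signal of 197. In replicates 1, 2 and 3 the rows nearest to this one had signals of 42.3, 80.6 and 64.0, and in replicate 2 alone was the row, at rank 10417, among the 11665 strongest. The −log10 q of these rows was 1.73, 1.71 and 3.74, so that only the row of replicate 3 (rank 13604) exceeded 2. For comparison, shd-7 was just inside the optimal list with a signal of 208, so these sites lay on either side of the list threshold with similar values.

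Npc1a (FBgn0024320, chr2L:10213812-10221216) was 107809 bp from the nearest optimal summit, and 2.00% of genes lay farther. The pooled list was empty over 159538 bp around it (chr2L:10144475-10304013). The replicate lists were not: replicate 1 had 5 rows there, of which 4 were among its strongest 11665, replicate 3 had 17, of which 9 were, and replicate 2 had 4, of which 0 were. Replicates 1 and 3 shared 4 strong rows. At the TSS of RpL7, a ribosomal protein gene with its row 12759 bp from Npc1a in replicate 1, their signals were 222 and 245, and at ova, 10035 bp away, they were 142 and 206. Across the genome, 255 of the 9395 strong rows shared by replicates 1 and 3 (2.71%) had no pooled row within 500 bp, against 0.729% for replicates 1 and 2 and 0.427% for replicates 2 and 3. The part of these missing pooled rows in the distance given for Npc1a was not tested. Within 5 kb of Npc1a itself, the listed rows were a single one of replicate 3, with a signal of 37.2.

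Other genes of the pathway were read by the same rule. All 27 listed genes matched the annotation, phm (phantom, Cyp306a1) under its symbol phtm. A peak was found at 16 of 27 (59.3%, against 54.1% of all protein-coding genes), with 92 summits in all, and 8 of 27 had 1 within 500 bp of their own TSS, against 19.1% of all protein-coding genes. The 3 transport genes had 26 of the summits. E23, an ABC transporter that limits the hormone inside cells, had the strongest of all, with a signal of 4975 (rank 59) 223 bp from its TSS. Atet, an ABC transporter of the secretory vesicles of the gland, had its strongest peak 849 bp from its TSS (signal 2684), and Oatp74D, the importer of the hormone, had 12 summits of up to 1324. All 3 transport genes had a promoter-proximal peak.

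Transcription factors that act in the gland had 46 of the summits, at 4 of 6 genes. The nuclear receptor gene Hr4 had 20 (strongest signal 3949, in its intron) and the nuclear receptor gene ftz-f1 had 18 (strongest 1177, in its intron). The zinc finger gene mld had 5 with a strongest signal of 1277, and the POU factor gene vvl had 3 of at most 497. Hr4, ftz-f1 and mld are long genes, of 66017, 50703 and 38247 bp, whereas the median protein-coding gene has 2166 bp, and the rule counts summits over the whole body.

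Within 500 bp of their own TSS, 0 of the 7 other synthesis genes had a summit, against 19.1% of all protein-coding genes. By the 5 kb rule 4 of 7 had a peak, against 54.1% of all protein-coding genes. They were dare, the reductase that feeds electrons to mitochondrial P450 enzymes (strongest signal 2577, in the 5' UTR of Fbl6), Fdx1 and Fdx2, ferredoxins of the same chain (1433, in a coding exon annotated to Hsp22 and CG4456, and 738, in an intron of Hexo1), and Alas, an enzyme of haem synthesis (698, 110 bp from the TSS of Fmo-1). These strongest summits all lay at or in other genes. Phtm, the P450 hydroxylase that acts before dib and the neighbour of Cyp18a1, had no peak and was 6677 bp from the nearest optimal summit. Among sterol supply genes 1 of 4 had a peak, Npc2a, a sterol-binding protein (545, in Got2). Among genes that signal to the gland 3 of 6 had 1: babo, an activin receptor (1387, 201 bp from the shared nearest start sites of CG33199 and CG8229), Smox, its Smad protein (1170, 97 bp from the TSS of CG17982), and jeb, the ligand of Alk (976, in its own intron). Eo, the oxidase that converts the hormone, had its strongest peak of 795 at 3919 bp from the gene, in an intron of CG9503 and Flo2. A strongest summit at or in a neighbouring gene was thus not particular to the synthesis genes. Npc2a and Smox also had a weaker summit within 500 bp of their own TSS.

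**Figure D4:**
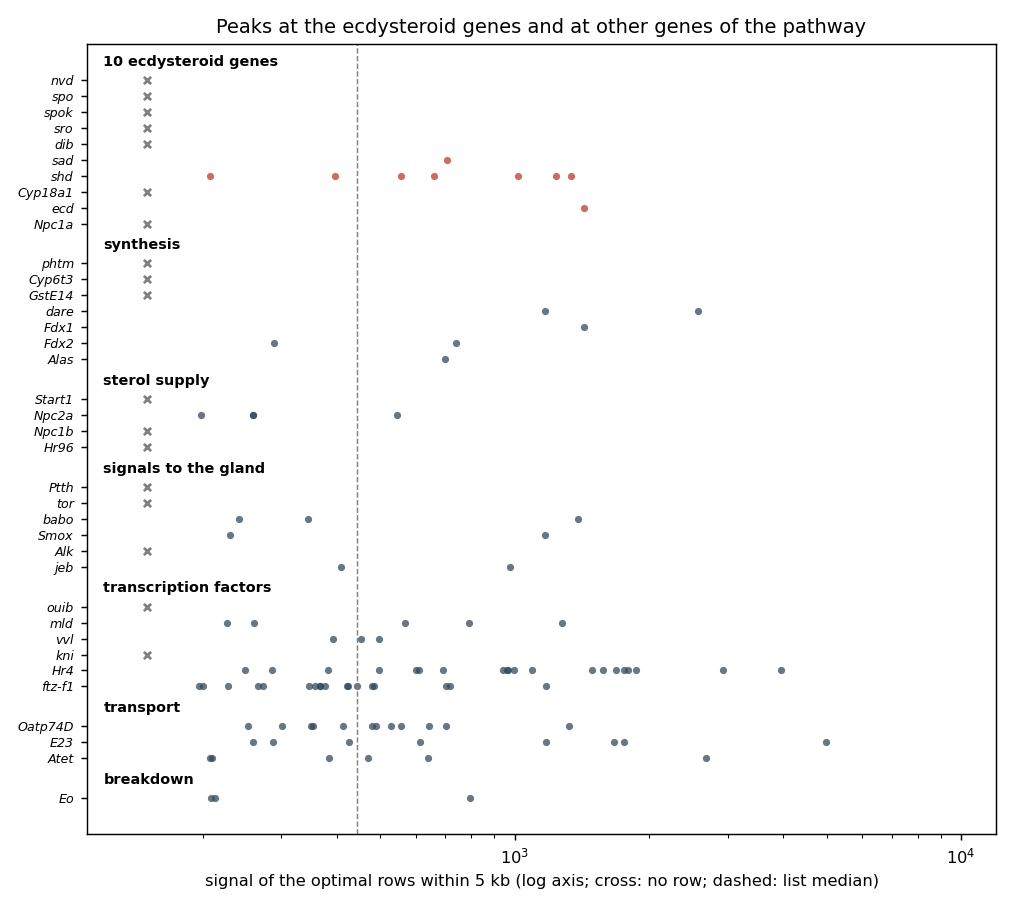
Signal of each optimal row within 5 kb (log axis) for the 10 ecdysteroid genes and 27 other genes of the pathway, ordered by role; crosses mark genes with no row and the dashed line is the list median of 443. Rows reach 4975 at E23, while among the 10 genes the highest is 1428 at ecd.

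The windows printed above were poor in G and C. GC content in them was 28.7% ± 8.03 (SD over 9 peaks), compared with 41.5% in windows centred 500 bp away on both sides, a difference of -12.8 percentage points. Over all optimal peaks the values were 32.9% and 43.6%, a difference of -10.8. With the summits of each replicate in turn, the difference at the same 9 peaks was -13.8 ± 1.11 points (SD, n = 3). GC was lower at the summit in 7 of 9 peaks (77.8%) and in 83.5% of all optimal peaks. The exceptions were shd-5, the peak at the promoter of shd, with 46.5% at the summit and 41.1% beside it, and shd-7, with 30.7% and 25.2%. The lowest GC was that of the intronic shd-6 (18.8%), which also has poor flanks (24.8%), and that of sad-1 (20.8%, with 54.0% beside it).

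**Figure D5:**
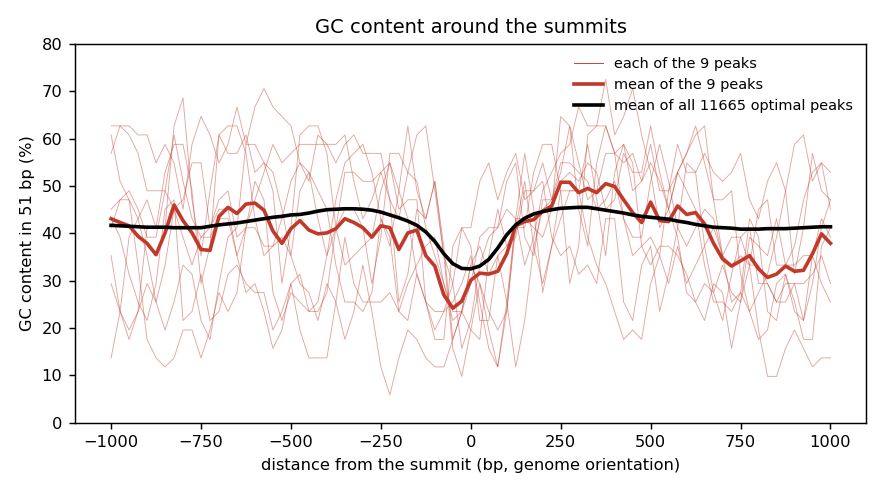
GC content in sliding windows of 51 bp (percent) against distance from the summit in bp, in genome orientation, for each of the 9 peaks (thin), their mean (thick red) and all 11665 optimal peaks (black). Both means dip near the summit, where windows of 101 bp gave 28.7% for the 9 peaks and 32.9% for all.

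Motifs were searched on both strands of these windows. The forkhead motif TGTTTAC was in 0 of 9 and in 2.23% of all optimal windows of the same length. Only this exact form was searched, so the 0 does not show that forkhead sites are absent from these windows. The homeodomain motif TAATTA was in 3 of 9 (sad-1, shd-1 and shd-3) and in 10.6% of all. TCGATA, the motif of the boundary factor BEAF-32, was in 2 of 9 (sad-1 and shd-6) and in 3.73% of all, and GAGAG, bound by GAGA factor, was in 2 of 9 (shd-5 and ecd-1, as CTCTC on the printed strand) and in 9.56% of all. AGGTCA, a nuclear receptor element, was in 0 of 9 and in 2.01% of all. Flanking windows held TGTTTAC in 1.97%, TAATTA in 6.18%, TCGATA in 3.11%, GAGAG in 13.8% and AGGTCA in 2.10%. GAGAG was thus less frequent at summits than in flanks. Over all optimal peaks, GC content was also lower at summits (32.9%) than in flanks (43.6%). The part of base composition in these motif shares was not tested. The ecdysone receptor palindrome, which repeats that element AGGTCA on the opposite strand 1 base away, was in 0 of 9 and in 0% of all. It was also in 0% of flanking windows, so this exact match cannot tell whether the receptor has sites at these peaks. The longest run of A and T had a median of 11.0 bases in the 9 windows, 10.0 in all optimal windows and 7.0 in flanks 500 bp away, and it was longest in ecd-1 (23 bases) and sad-1 (22 bases), the peaks between start sites of neighbouring genes. These matches are descriptions of letters in 101 bp windows of few peaks, and 7 of the windows come from the same locus.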

How the data were processed

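ChIP-seq peak lists of 3 biological replicates of CG32006-GFP prepupae were analysed. Per the deposited notes, the lists were called on each replicate (30000 rows) and on all pooled, each against the same control, which was not analysed here. No source used here names the aligner or the peak caller. In the dm6 lists the authors deposited a signal per row (scale not stated), a −log10 q value and the offset of the summit from the row start (in the optimal list, 9 offsets past the row end were set to the last base). Lists in dm3 were not used. Read depth is unknown, so no interval was computed.

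Genes came from the Ensembl annotation (release 115) and sequences, with their lower-case masking, from the Release 6 genome. Coordinates count from 1. Python 3.11.15, numpy 2.4.6 and pandas 2.3.3 were used, and the scripts were tested on simulated lists. There was 1 group and hence no contrast and no test. Results are counts, distances, ranks, and mean ± SD over 3 replicates. A replicate row was matched to an optimal peak by the nearest summit within 100 bp, a rule chosen after seeing the data.

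All 10 genes were named, as were pathway genes with a peak and genes whose TSS was nearest to a peak of the 10. Other neighbours, phtm, the stretch around Npc1a and the site at l(3)psg2 were singled out after their values were seen. The members and gene lists were chosen with earlier results of these data known. Alternatives were other distances, lists, thresholds, overlap rules and windows, and leaving out each replicate.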

Additional observations from a re-analysis of the deposited data

How the results depend on the processing

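The counts depended mainly on the distance allowed. With summits in the gene body alone, 1 of the 10 genes had a peak (shd, 1 summit) and 9 of the other pathway genes did, when 17.1% of all protein-coding genes did. With 10000 bp, 7 genes had a peak (spo, sro, dib, sad, shd, Cyp18a1 and ecd) with 22 summits, when 71.4% of all genes did. With promoters taken as 200 bp, 0 of the 10 genes had a promoter-proximal peak, and the share of all genes at that distance was not computed. Of 49 alternatives in all, 43 stayed within 1.5 times the main count (or 1 SD of the GC difference). Counts have no direction to reverse, and the GC difference stayed negative with other windows and flanks (-13.7, -13.8 and -11.7 percentage points). The pooled list with a −log10 q of at least 2 added Cyp18a1, which gave 4 of 10 genes when 56.7% of all genes had a peak. The 11665 strongest rows of replicate 2 also added Cyp18a1, through a row with a −log10 q of 1.71.

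Leaving out each replicate in turn and asking for support by both others gave 3 to 3 genes with a peak, 7 to 8 peaks, 16 to 16 other pathway genes, 1 to 1 promoter-proximal genes and 7 to 8 supported peaks. The optimal list, made from all 3 replicates, was only filtered for this and not called again, so the left-out replicate still shaped it. No paired analysis was possible because there was 1 group. Read depth is unknown, which limits what a missing row shows at any gene.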
